A study of Homo sapiens with 4 samples.

Results

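The epidermal differentiation and S100 complex was examined as the accessible regions between positions 151900000 and 153700000 of chromosome 1 on the hg19 build. Regions were taken by position and not by their values, but with earlier results of these data known. Peaks of 4 ATAC-seq peak lists were merged wherever they had 1 bp in common, which gave 373425 regions on chromosomes 1 to 22 and X, and 263 of them touched this window. The epidermal part, from 151950000 to 153200000, held 148 regions, and the S100 part, from 153300000 to 153650000, held 83. The remaining 32 regions lay in neither part, at the borders of the window or between the parts. All libraries came from BCPAP, a single established human papillary thyroid carcinoma line. Libraries 1 and 2 of the untreated group received no drug, and libraries 1 and 2 of the treated group came from cells given 5-azacytidine, a nucleoside that is built into DNA, captures the enzymes that methylate it and so depletes CpG methylation. The labels give no dose or duration, and whether the replicates were separate cultures is not stated. The spread between replicates may therefore be technical. The p-values come from exact permutations over these 4 libraries and do not measure that spread. Thyroid and skin marker genes could not be checked against the peaks, since gene positions on hg19 were not used here.

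In ATAC-seq a transposase cuts exposed DNA, and accessible enhancers and promoters appear as peaks of read coverage. The epidermal differentiation complex is a run of genes that are switched on as keratinocytes form the outer, dead layer of the skin. Involucrin (IVL), loricrin and the small proline-rich SPRR proteins are cross-linked into the cornified envelope, the late cornified envelope (LCE) proteins join it last, and filaggrin (FLG), trichohyalin (TCHH), hornerin (HRNR) and repetin (RPTN) carry an S100-type calcium-binding start fused to long repeats. The S100 genes encode small calcium-binding proteins. S100A8, S100A9 and S100A12 are abundant in myeloid cells and inflamed epithelium, S100A7 is psoriasin, an antimicrobial skin protein, and S100A4 and S100A6 are widely studied in tumour cells. In the RefSeq gene order of GRCh38.p14, S100A10 and S100A11 come first, followed by the fused genes from TCHHL1 to CRNN, the LCE genes, IVL, the SPRR genes and LORICRIN. After PGLYRP3 and PGLYRP4, which encode peptidoglycan recognition proteins, the S100 genes run from S100A9, S100A12, S100A8 and S100A7 to S100A6, S100A5, S100A4, S100A3 and S100A2, and then S100A16, S100A14, S100A13 and S100A1. Only this order was used, and no peak was assigned to a gene.

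The promoters along this order differ in the CpG dinucleotides that 5-azacytidine acts through, and 4 are shown to make that visible. They are the 250 bases before the start in the RefSeq table, 5′ to 3′ along the gene, with each CG and each TGANTCA in capitals. TGANTCA is the letter pattern bound by AP-1 factors and reads the same on both strands, and it does not overlap CG in these 4 sequences. Their GRCh38.p14 positions are chr1:152908296-152908545 on the plus strand for IVL, chr1:152325240-152325489 on the minus strand for FLG, chr1:153357604-153357853 on the plus strand for S100A9 and chr1:153535992-153536241 on the minus strand for S100A6. These positions are on another build than the peaks and were not compared with them.
IVL: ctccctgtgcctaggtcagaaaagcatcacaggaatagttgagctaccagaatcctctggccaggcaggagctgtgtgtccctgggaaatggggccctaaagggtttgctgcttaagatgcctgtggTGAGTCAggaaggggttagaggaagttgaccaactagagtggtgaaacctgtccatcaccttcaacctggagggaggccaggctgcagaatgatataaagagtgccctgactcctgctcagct
FLG: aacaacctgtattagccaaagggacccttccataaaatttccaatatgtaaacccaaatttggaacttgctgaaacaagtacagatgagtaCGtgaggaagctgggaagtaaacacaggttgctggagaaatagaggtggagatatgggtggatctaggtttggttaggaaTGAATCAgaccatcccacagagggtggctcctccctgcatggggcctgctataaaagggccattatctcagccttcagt
S100A9: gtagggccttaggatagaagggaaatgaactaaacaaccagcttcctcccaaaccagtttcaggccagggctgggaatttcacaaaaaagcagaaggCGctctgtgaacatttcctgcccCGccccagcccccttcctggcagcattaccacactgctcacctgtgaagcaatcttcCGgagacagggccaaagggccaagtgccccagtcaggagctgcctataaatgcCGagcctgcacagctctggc
S100A6: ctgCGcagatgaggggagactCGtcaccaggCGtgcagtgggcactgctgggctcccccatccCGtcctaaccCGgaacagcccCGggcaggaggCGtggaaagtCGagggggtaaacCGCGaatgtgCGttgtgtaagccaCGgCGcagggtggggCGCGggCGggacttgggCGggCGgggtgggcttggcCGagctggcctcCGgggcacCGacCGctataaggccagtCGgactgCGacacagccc

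IVL held 0 CG and FLG 1, and each had 1 TGANTCA. S100A9 held 4 CG and S100A6 24, and neither had a TGANTCA in this window. Of the 43 genes in the 4 epidermal lists (fused S100-type, LCE, SPRR and other cornified genes), 38 were in the promoter table, with 39 promoters. These had a median of 1 CG, ranging from 0 to 5, and none reached 10. Over all 35116 promoters of the table the median was 11, and 52.2% held at least 10. The 16 matched S100 genes of 17 had 23 promoters with a median of 4, ranging from 1 to 24. At least 10 CG were found at 5 of them, those of S100A10 (24), S100A11 (15), S100A6 (24) and a pair of S100A13 starts (10 and 15). TGANTCA was present at 6 of 7 fused S100-type promoters, 6 of 8 SPRR promoters, 4 of 6 other cornified promoters and 0 of 18 LCE promoters. It was present at 4 of 23 S100 promoters and at 6.57% of all promoters. The letters describe these windows and do not show binding.

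**Figure D1:**
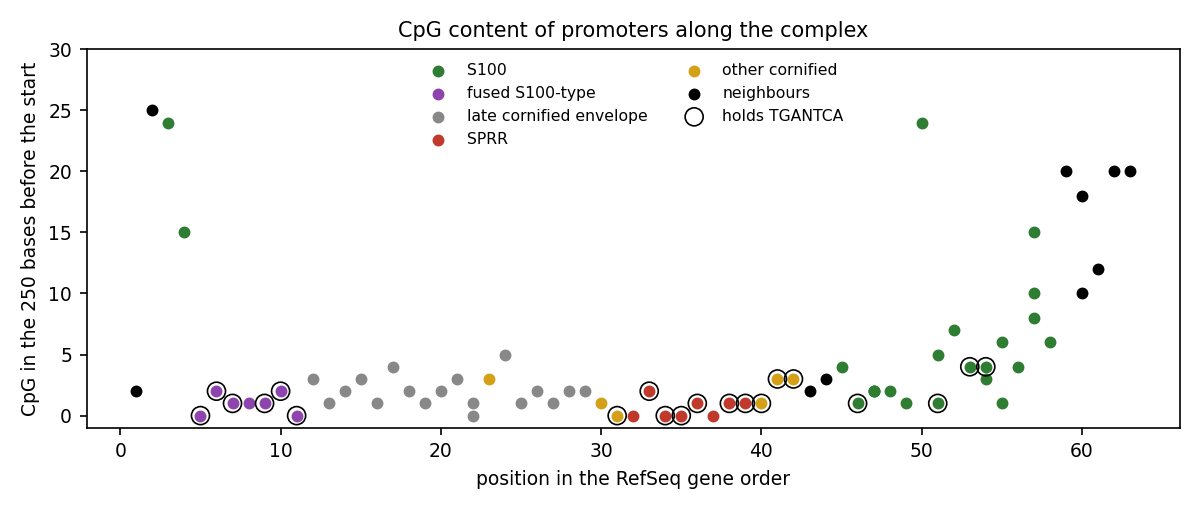
CpG dinucleotides in the 250 bases before each RefSeq start (vertical axis) against the position of the gene in the gene order (horizontal axis), coloured by gene list, with a ring where the promoter holds TGANTCA. The epidermal lists lie between 0 and 5 CG, and the highest S100 promoters, those of S100A10 and S100A6, reach 24.

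Across the whole series, the untreated lists were 221110 and 223345 peaks long and the treated lists 259572 and 245142, and read depth is unknown. Summit coverage, the read coverage at the top of a peak recovered from the authors' fold enrichment, had a median of 23, 18, 11 and 16 in these libraries over the 105414 regions found in all 4 lists. Treated replicate 1 therefore stood apart with the lowest peaks, and 45.0% of its peaks had a summit coverage of 6 or less, against 23.4% to 29.9% in the others.

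Peaks were denser in the S100 part than in the epidermal part in each library. In the epidermal part, untreated replicates 1 and 2 had 129 and 109 peaks and treated replicates 1 and 2 had 91 and 102. Per Mb this was 103, 87.2, 72.8 and 81.6, against 72.9, 73.6, 85.5 and 80.8 over chromosomes 1 to 22 and X in the same libraries. The epidermal density was thus above the genome in both untreated libraries, close to it in treated replicate 2 and below it in treated replicate 1. The S100 part held 68, 68, 60 and 69 peaks in the same order, or 194, 194, 171 and 197 per Mb. The density of the S100 part was 1.88, 2.23, 2.35 and 2.42 times that of the epidermal part in the 4 libraries, higher in 4 of 4. An exact two-sided paired permutation test over the 4 libraries gave a p of 1 in 8, the smallest it allows. Among 7923 tiles of 350 kb over chromosomes 1 to 22 and X, 83.7% held fewer regions than the S100 part, and 92.4% held fewer regions present in all 4 lists. Among 2298 tiles of 1250 kb, 57.0% held fewer regions than the epidermal part and 68.5% fewer regions in all 4 lists. Whether the epidermal genes were transcribed was not analysed here.

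**Figure D2:**
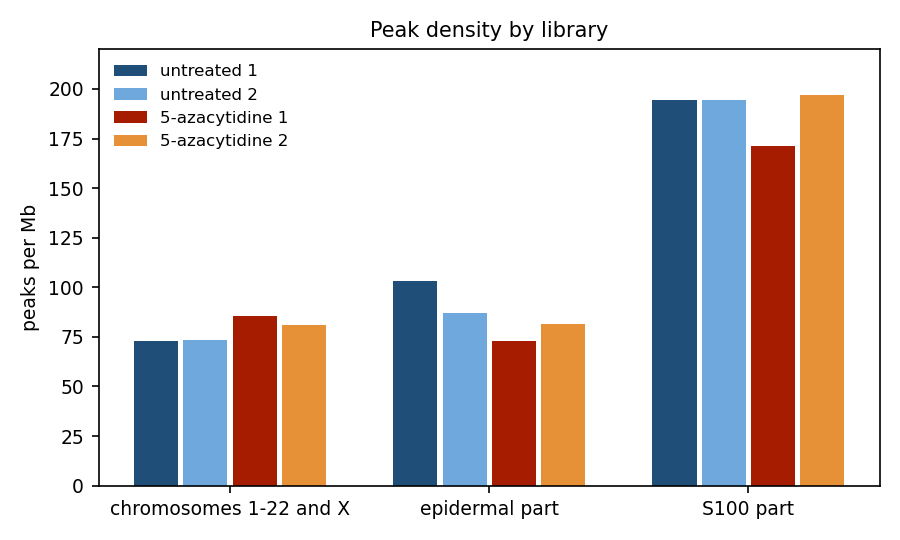
Peaks per Mb (vertical axis, from 0) in each of the 4 libraries for chromosomes 1 to 22 and X, the epidermal part and the S100 part, 1 bar per library. The S100 bars stand at 171 to 197, and the epidermal bars at 72.8 to 103.

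Peaks were bunched within both parts. In 50 kb bins, the fullest began 1600 kb from the start of the window, in the S100 part, and held 27 and 31 untreated and 26 and 23 treated peaks. It was followed by the bin beginning at 50 kb, at the start of the epidermal part, with 18, 18, 14 and 16. In treated replicate 2 the bin beginning at 1650 kb, with 17 peaks, took that second place. The S100 part split into a sparse and a dense stretch, a division made after the bins were seen. Its first 200 kb had 85, 65, 60 and 85 peaks per Mb, and its last 150 kb had 340, 367, 320 and 347. The epidermal part was uneven in the same manner. The first 100 kb of that part had 270, 270, 230 and 250 peaks per Mb, and the rest had 88.7, 71.3, 59.1 and 67.0, below the genome in all libraries but untreated replicate 1. In the gene order, S100A10 and S100A11 lie ahead of the cornified genes, and S100A9 to S100A7 ahead of S100A6 to S100A1. Which of these genes the dense stretches hold on hg19 was not analysed here. The 5 longest stretches without a peak in any list measured 56.1, 46.3, 39.5, 38.9 and 34.7 kb. All 5 lay in the epidermal part, and the longest ran from 152025522 to 152081612.

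**Figure D3:**
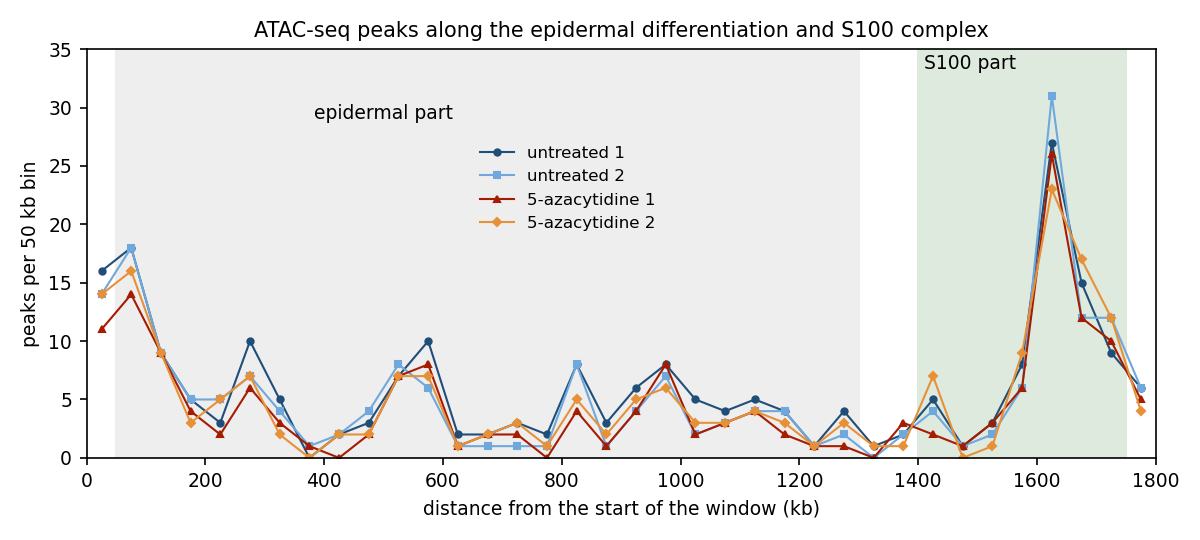
Peaks per 50 kb bin (vertical axis) against the distance from the start of the window in kb (horizontal axis), 1 line per library, with the epidermal and S100 parts shaded. All 4 lines peak in the bin starting at 1600 kb, at 23 to 31 peaks, and have a lower peak in the bin starting at 50 kb, at 14 to 18.

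How often a region recurred between libraries was similar in the 2 parts. A peak in all 4 lists was found at 56 of 148 epidermal regions (37.8%) and 33 of 83 S100 regions (39.8%), against 28.2% of all regions. A further 18 and 13 regions were in 3 lists, 23 and 6 in 2, and 51 and 31 in 1 list only (34.5% and 37.3%, against 45.9% of all regions). Regions in all 4 lists lay a median of 10.95 kb apart, centre to centre, in the epidermal part and 4.76 kb apart in the S100 part. Regions wider than 1000 bp made up 8.11% of epidermal, 19.3% of S100 and 9.50% of all regions. These wide regions are chains of neighbouring summits. The widest, at 2893 bp, ran from 151964078 to 151966970 in the epidermal part and joined 14 peaks. Another joined 16 peaks over 2774 bp from 153504465 to 153507238 in the S100 part. The next were 2441 bp from 152082693 to 152085133 and 2280 bp from 152006809 to 152009088, both epidermal, and 2182 bp from 153579958 to 153582139 in the S100 part.

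Few regions were listed in both libraries of 1 group only. With all 4 libraries more of these were lost than gained. In the S100 part this order did not hold with either treated library left out, and held with either untreated library left out. Gained means listed in both treated and in no untreated library, and lost means the reverse. There were 5 gained regions among the 263 (1.90%, against 4.21% of all regions) and 14 lost regions (5.32%, against 3.35%). The epidermal part held 3 gained and 10 lost, the S100 part 0 gained and 2 lost, and the rest of the window 2 and 2. Regions shared by 1 untreated and 1 treated list alone show how often such patterns arise without the treatment separating them. In the epidermal part, 7 regions occurred in just untreated replicate 1 and treated replicate 2, and 2, 1 and 0 in the other such pairs. In the S100 part each of the 4 such pairs had 1 region, and over all regions they made up 1.69% to 2.42%. With 2 libraries a group, no single region can pass a test of presence. With weaker peaks left out (−log10 q of 5 or more kept), the S100 part held 1 gained and 5 lost regions and the epidermal part 0 and 5. Without treated replicate 1, where 1 treated list is enough, the S100 part held 11 gained and 5 lost and the epidermal part 8 and 11. Without treated replicate 2 these were 9 and 9 in the S100 part and 17 and 22 in the epidermal part. In the S100 part they were 2 and 8 without untreated replicate 1, and 3 and 11 without untreated replicate 2. The epidermal counts in that order were 7 and 24, and 6 and 32. A region in 1 list only then counts for the group left with 1 library, which favours the class of that group. The shares of all regions above do not apply to these changed settings. Whether such counts exceed those of other regions was therefore not tested.

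The strongest lost region, from 151986032 to 151986557, had summit coverages of 14 and 18 in the untreated libraries and no listed peak in the treated ones. It was followed by 152729305 to 152729804, with 11 and 11, and by 152454771 to 152455279, with 10 and 8. For the last of these a peak number was missing from both treated lists at that place, so that a called peak may have been removed. That also held in a treated list for the lost region from 152734257 to 152734934, with 8 and 5. The other epidermal lost regions, with 4 to 9, were 151969589 to 151970091, 152081613 to 152082305, 152217569 to 152218185, 152223750 to 152224278, 152720119 to 152720628 and 152972020 to 152972537. In the S100 part, 153482124 to 153482625 had 9 and 8, and 153622230 to 153622804 had 7 and 4. Outside the parts, 153650066 to 153650806 had 6 and 8 and 153656282 to 153656817 had 5 and 8, and a peak number was missing at both, in 2 treated lists and in 1. Such gaps in the numbering touched 2 of the 10 epidermal lost regions, 0 of 2 in the S100 part and 2 of 2 outside. All 5 gained regions were low in treated replicate 1, at 4 to 6. The highest in treated replicate 2 lay from 151962460 to 151963016, with 4 and 13. The others in the epidermal part were 151999178 to 151999880, with 5 and 6, and 152627551 to 152628154, with 5 and 8. Also outside the parts, 153265272 to 153265840 had 5 and 6 and 153651883 to 153652505 had 6 and 8. At the second of these a peak number was missing from both untreated lists.

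Fewer peaks were listed in the complex after 5-azacytidine, while the lists as a whole were longer. The epidermal part held a mean of 119 ± 14.1 peaks untreated and 96.5 ± 7.78 treated (SD, n = 2 each), a log2 ratio of −0.30. Both treated libraries lay below both untreated ones, with a p of 0.333 by a two-sided exact permutation test, the lowest possible with 2 libraries a group. The S100 part held 68.0 ± 0 and 64.5 ± 6.36 peaks (SD, n = 2 each), a log2 ratio of −0.08 with overlapping groups (exact permutation p = 1). It was 0.02 without treated replicate 1, the library with the lowest peaks, −0.18 without treated replicate 2, −0.47 with weaker peaks left out and −0.14 with lists of equal length. Over chromosomes 1 to 22 and X the log2 ratio was 0.18. As a share of each list, the epidermal part made up 0.0583% and 0.0488% untreated and 0.0351% and 0.0416% treated, and the S100 part 0.0308% and 0.0304% untreated and 0.0231% and 0.0281% treated. Neither share overlapped between the groups, and each gave the same p of 0.333 (exact permutation test). For the S100 part this separation rests on list length, since treated replicate 2 held 69 peaks against 68 in each untreated library. The log2 ratio of S100 to epidermal peaks was −0.92 and −0.68 in the untreated and −0.60 and −0.56 in the treated libraries. The groups did not overlap, with a difference of 0.22 (exact permutation p = 0.333). It was 0.10 without untreated replicate 1, 0.34 without untreated replicate 2 and 0.10 with weaker peaks left out.

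Peak height in the S100 part stood further above the epidermal part in the untreated than in the treated libraries. Summit coverages were divided by each library's median over all regions in 4 lists, so that 1 is a typical shared region, and are given as a description, since each is a peak's own value. Without this scaling the median of all regions shifts by −0.56 on the log2 scale between the groups, and it was 0.06 after scaling. In the 33 shared S100 regions the untreated median summit coverages were 35 and 27 and the treated ones 13 and 17. In the 56 shared epidermal regions the 4 medians were 22, 15.5, 10 and 16. On the log2 scale relative to the library median, the S100 part stood at 0.61 and 0.58 in the untreated and 0.24 and 0.09 in the treated libraries. The epidermal part stood at −0.06 and −0.22 in the untreated and −0.14 and 0 in the treated libraries. The S100 part was thus above the epidermal part by 0.67 and 0.80 untreated and by 0.38 and 0.09 treated, and the groups did not overlap. The difference of these differences was −0.50 (exact permutation p = 0.333), and it was −0.03 without untreated replicate 1, −0.33 without untreated replicate 2, −0.28 without treated replicate 1 and −0.13 without treated replicate 2. Leaving out a library also brings in weaker regions, which then need a peak in 3 lists only.

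Region by region, the treated values of the S100 part more often lay below the untreated ones. Scaled coverage was lower in both treated than in both untreated libraries at 14 of 33 S100 regions (42.4%) and 7 of 56 epidermal regions (12.5%), against 22.2% of all shared regions. It was higher in both treated libraries at 5 S100 (15.2%) and 17 epidermal regions (30.4%), against 27.2%. The median log2 difference, treated minus untreated, was −0.31 in the S100 part, 0.11 in the epidermal part and 0.06 over all shared regions. By rank among the shared regions of each list, which removes any difference in scale, 15 S100 (45.5%) and 7 epidermal regions (12.5%) were lower, against 23.7%. The dense S100 stretch had 11 of 26 regions lower by scaled coverage and the sparse stretch 3 of 7, while 4 of 14 were lower in the first 100 kb of the epidermal part and 3 of 42 in the rest. With 1 library left out, the share of S100 regions below was 54.1% and 51.4% without untreated replicates 1 and 2, and 56.4% and 52.8% without treated replicates 1 and 2. The epidermal shares in that order were 28.8%, 34.4%, 25% and 37.9%, and those of all regions 38.7%, 36.3%, 36.7% and 40.2%. The epidermal share was therefore close to that of all regions without untreated replicate 2 or treated replicate 2.

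Over all shared regions, those strong in the untreated libraries were lower and those weak there higher in scaled coverage in the treated libraries. Grouping by the untreated values alone can give this pattern without any effect of the treatment, and which applies was not tested. The S100 regions were set beside others of the same untreated strength. At an untreated rank of 50 or less, the median log2 difference was 0.37 over all shared regions and 0.29 in both parts. This covered 14 S100 and 33 epidermal regions. Among all regions with an untreated rank above 75, 47.2% were lower in both treated libraries by scaled coverage and 34.3% by rank, with a median log2 difference of −0.25. The 14 S100 regions of that strength had a median of −0.60, with 11 lower by scaled coverage and 10 by rank. The 8 epidermal regions of that strength had a median of −0.02, with 1 lower by each measure. This division by strength was made after the data were seen and uses the untreated values of the same comparison, and it was not tested.

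**Figure D4:**
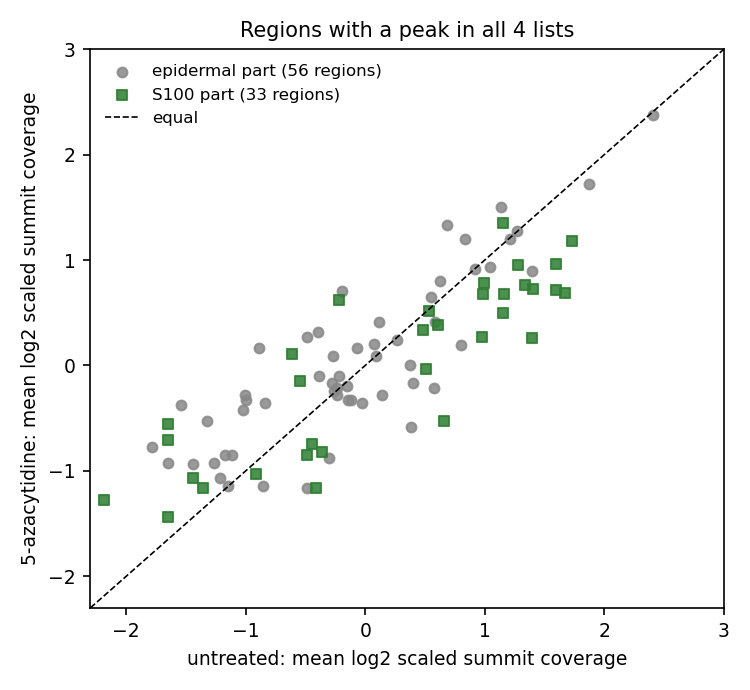
Mean log2 scaled summit coverage of the treated libraries (vertical axis) against that of the untreated libraries (horizontal axis) for the 56 epidermal and 33 S100 regions with a peak in all 4 lists, with the dashed line marking equal values. Of the S100 regions, 23 lie below the line (69.7%), and of the epidermal regions, 22 (39.3%), against 45.9% of all shared regions.

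Of the 10 S100 regions with the best lowest rank, 7 had lower scaled coverage in both treated libraries. Among all shared regions with an untreated rank above 75, a different choice of strong regions, this held for 47.2%. From 153504465 to 153507238, the chain of 16 peaks, the untreated summits reached 62 and 61 and the treated summits 23 and 29, a log2 difference of −0.63 after scaling. At 153599596 to 153601066 the values were 70 and 54 against 17 and 28 (−0.88), and at 153544892 to 153545430 they were 59 and 49 against 21 and 23 (−0.67). At 153643236 to 153644411 they were 68 and 39 against 17 and 30 (−0.57). Smaller differences were found from 153521697 to 153522224, with 53 and 39 against 16 and 28 (−0.49), from 153584392 to 153585804, with 52 and 47 against 22 and 30 (−0.33), and from 153462690 to 153463553, with 49 and 33 against 16 and 28 (−0.31).

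The other 3 had overlapping groups after scaling. The region from 153579958 to 153582139 had 54 and 38 untreated and 31 and 37 treated, a scaled difference of 0.20, and by rank both treated libraries were higher. From 153630828 to 153631370 the values were 35 and 47 against 18 and 29 (−0.21). In the region from 153537595 to 153538659 the treated libraries parted, with 68 and 67 against 15 and 60 (−0.55).

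Among the remaining shared S100 regions, some with larger differences were picked after their values were seen. The region from 153507692 to 153508893, next to the chain of 16 peaks, had 57 and 50 against 14 and 18 (−1.13), and 153538735 to 153539948 had 76 and 55 against 13 and 35 (−0.98). The lowest difference of the S100 part, −1.19, was that of 153513094 to 153513667, with 37 and 28 against 5 and 17. In the other direction were weaker regions. At 153488259 to 153488798 coverage was 16 and 19 against 18 and 23, a scaled difference of 0.84, and at 153536535 to 153537109 it was 6 and 7 against 9 and 9, or 1.09. The last is near the lowest coverage a list can hold, which is 4.

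The strongest region of the window lay in the first 100 kb of the epidermal part and kept its place. That part is a range of positions, and in the gene order S100A10 and S100A11 come ahead of the cornified genes. No peak was assigned to a gene. The strongest region ran from 152020324 to 152020931, with a summit coverage of 142 and 82 untreated and 62 and 77 treated. Its lowest rank in any list was the 98.6th percentile, and its scaled difference was −0.03. The second, from 152878356 to 152879265, had 88 and 63 against 34 and 56, a scaled difference of −0.15, with untreated replicate 2 and treated replicate 2 equal after scaling. The other regions of its 50 kb bin, which begins 950 kb into the window, had at most 21 in untreated replicate 1. Towards the end of the epidermal part, 153072678 to 153073184 had 57 and 35 against 30 and 47, and 153160703 to 153161236 had 38 and 28 against 30 and 37. Their scaled differences were 0.37 and 0.65, with both treated libraries higher by scaled coverage and by rank. Another 5 of the 10 epidermal regions with the best lowest rank had overlapping groups. The region from 151960935 to 151962452 had 49 and 49 against 27 and 38 (0.0037), 153005330 to 153005848 had 46 and 48 against 19 and 49 (−0.0059), and 152475205 to 152475727 had 44 and 40 against 17 and 38 (−0.11). At 152009253 to 152010095 the values were 33 and 45 against 16 and 39 (−0.0084), and at 152489511 to 152490430 they were 32 and 41 against 22 and 42 (0.36).

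Several epidermal regions differed in the direction of the S100 part. Scaled coverage was lower in both treated libraries at 4 of 14 shared regions in the first 100 kb of the epidermal part (28.6%). In the rest of that part it was lower at 3 of 42 (7.14%), against 22.2% of all shared regions. The chain from 151964078 to 151966970 had 56 and 51 against 21 and 29 (−0.50). Nearby, 151953603 to 151954133 had 36 and 35 against 11 and 21 (−0.61), and 151973963 to 151974513 had 42 and 22 against 10 and 13 (−0.80). The lowest epidermal value, −0.97, was that of 152451976 to 152452992, with 32 and 22 against 6 and 13. In the other direction, the broad low region from 152006809 to 152009088 had 15 and 14 against 17 and 15, so that its scaled difference was 0.76. The region from 152135166 to 152135738 had 21 and 15 against 18 and 26 (0.90), and 152843490 to 152844281 had 11 and 11 against 10 and 22 (1.05).

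**Figure D5:**
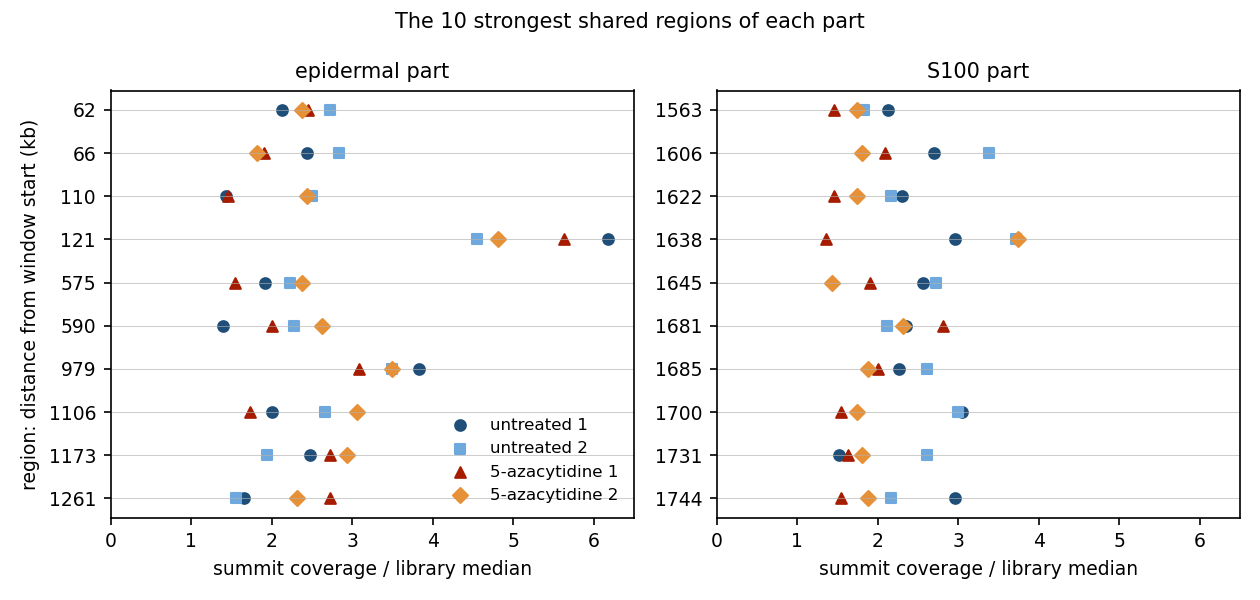
Summit coverage divided by the library median (horizontal axis) in each library for the 10 shared regions of each part with the best lowest rank, listed by distance from the window start in kb (vertical axis). In the S100 panel both treated libraries lie left of both untreated libraries in 7 of 10 regions, and in the epidermal panel in 1 of 10. The same held for 47.2% of all shared regions with an untreated rank above 75, which were chosen on untreated values alone.

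The overlap of peak sets did not separate the groups in this window. The Jaccard index divides the bases that a pair of lists shares by all bases that either covers. It was 0.516 for the untreated pair and 0.437 for the treated pair. Across the groups, treated replicate 1 gave 0.398 and 0.399 with the untreated libraries, and treated replicate 2 gave 0.497 and 0.489. In the S100 part the treated pair was the least alike, at 0.375, and the untreated pair the most alike, at 0.496.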

How the data were processed

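ATAC-seq peak lists of 4 BCPAP libraries were used, 2 untreated and 2 given 5-azacytidine. Trimmomatic, Bowtie2, Picard, MACS2 and hg19 are named by the submitters' processing notes. Their versions and settings were not given in the sources used here, and all peaks were called per library, per the peak names in the deposited files, and nearly all intervals were 500 bp wide. The peak score in the deposited lists was rescaled by the authors so that each list sums to 1000000 and was not used. Fold enrichment, −log10 p and −log10 q came from the authors' deposited lists. Each list's fold values moved in equal steps (whole within 0.001 of a step), so each gave a summit coverage, of 4 or more. The step gave a background coverage of 0.875 to 0.913 per library, and the number of reads is unknown. Peaks within a list were ranked on the p-value the authors deposited, and ranks among shared regions by summit coverage. The deposited summit offset was not used.

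Counts of peaks were compared by exact permutation over libraries, and counts of regions were set beside all regions. The merging and scaling were tested on simulated lists. Named regions were all gained and lost regions, the 10 shared regions of each part with the best lowest rank, the 5 widest regions and the 5 longest empty stretches. Further regions with non-overlapping groups were picked after their values were seen, as were the printed promoters. The members and lists were chosen with earlier results of these data known. Promoters came from RefSeq on GRCh38.p14, and no hg19 genome or annotation was used. The planned placement of peaks at gene starts and the peak sequences were therefore not run. Computations used Python 3.11.15, numpy 2.4.6 and pandas 2.3.3.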

Additional observations from a re-analysis of the deposited data

How the results depend on the processing

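The density ratio of the parts, the log2 ratio of peaks in the epidermal part and both comparisons between the parts kept their direction in every alternative run. Their size did not always hold. With 1 library left out, the epidermal log2 ratio was −0.42 to −0.18. The coverage difference between the parts was −0.33 to −0.026, and it nearly vanished without untreated replicate 1. The log2 ratio of S100 peaks was −0.18 to 0.021 with 1 library left out. It turned to 0.021 without treated replicate 1, and the cause was not tested. It was −0.47 at a −log10 q of at least 5 and −0.14 with lists of equal length. At a −log10 q of at least 5, regions in all 4 lists numbered 31 epidermal and 20 S100, gained regions 0 and 1, lost regions 5 and 5, and the median difference in the S100 part was −0.49. With each list shortened to its 221110 strongest peaks, the order given to peaks of equal p moved the epidermal gained regions between 1 and 2 and the lost S100 regions between 2 and 4 over 5 orders, added after seeing the data. Requiring an overlap of 50% gave 5 lost S100 regions. With the epidermal part from 152050000 and the S100 part to 153700000, 1 epidermal and 1 S100 region were gained, 4 S100 regions were lost and 3 epidermal regions had lower treated values. Without scaling, the median differences were −0.51 epidermal, a reversed sign, and −0.93 S100, beside −0.56 for all regions. With 1 library left out, by construction, gained regions numbered 6 to 17 epidermal and 2 to 11 S100, lost regions 11 to 32 and 5 to 11, and regions with lower treated values 17 to 22 and 18 to 22. S100 regions gained outnumbered those lost, 11 to 5, without treated replicate 1, and were 9 and 9 without treated replicate 2. They were 2 gained and 8 lost without untreated replicate 1, and 3 and 11 without untreated replicate 2. The gained and lost counts of these changed settings were not set beside shares of all regions. The epidermal median difference was −0.0064 to 0.13 in these settings, turning to −0.0064 without treated replicate 2 and −0.0059 without untreated replicate 2, and was 0.00011 without untreated replicate 1. With the replicate block the log2 ratios were −0.30 epidermal and −0.08 S100, and the difference between the parts 0.22 (exact permutation p = 0.5, 1 and 0.5, where 2 pairs allow no less than 0.5). The replicate numbers mark no shared batch in the labels, and same-numbered libraries deviated with a correlation of −0.052 over all shared regions. The lowest summit coverage of 4 limits what can be seen as absent, since a region without a listed peak may hold weaker coverage.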
